A study of Homo sapiens with 6 samples.

Results

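The genes described here are 10 textbook genes of the epithelial-mesenchymal transition (EMT), taken by symbol from a table of 20263 genes: the transcription factors SNAI1, SNAI2, ZEB1, ZEB2, TWIST1 and TWIST2, the cadherins CDH1 and CDH2, vimentin (VIM) and fibronectin (FN1). All 10 have a row and all 10 passed the filter on low counts, the smallest count of any of them in a library being 104. HCCLM3 is an established human liver cancer line with high metastatic potential. RNA was sequenced from cells exposed to CC-885 for 24 h (3 libraries) and from cells given the solvent DMSO (3 libraries), all in DMEM with 10% serum. CC-885 binds cereblon, the substrate receptor of a ubiquitin ligase, and redirects the ligase to new proteins. The sources used here give no dose. The study's title names the degradation of GOLM1 protein and the growth and metastasis of liver cancer, and the comparison below asks how the mRNAs of EMT genes stood after the treatment.

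In EMT, epithelial cells loosen their contacts and take on a mesenchymal form. Factors of the SNAIL and ZEB families are zinc finger repressors that bind E-box sequences of epithelial genes, the best known of which encodes E-cadherin. TWIST factors are basic helix-loop-helix proteins. A gain of N-cadherin, vimentin and fibronectin is commonly used as a sign of the mesenchymal state. In hepatocellular carcinoma these genes are studied as markers of invasion.

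Total counts per library ran from 30432509 to 39809131. Since no label states separate cultures for the 3 libraries of either group, p-values here speak of the spread among libraries, which may be technical. Markers of the labelled liver cell type were mostly missing: 7 of 16 hepatocyte and liver cancer markers, among them ALB, AFP and TTR, had 0 counts in every library, while the epithelial keratin genes KRT8 and KRT18 were abundant. Of 4 tested markers 2 were lower, HNF4A and KRT8 (log2 fold change -0.49, edgeR adjusted p = 0.0236, lost without DMSO replicate 1 or any 1 of the CC-885 libraries), and the summed level of the 16 ran from 1366 to 1658 CPM after CC-885 and from 1809 to 2214 CPM after DMSO. KRT8 and KRT18 made up nearly all of that sum, and the other 14 markers summed to between 3.30 and 5.20 CPM after CC-885 and between 4.39 and 5.31 CPM after DMSO. The part of this shift in the results below was not tested. Of 7 leukocyte markers 3 had 0 counts in every library, PTPRC and CD3E among them. CD68, at a mean of 2.65 CPM after CC-885 and 2.83 CPM after DMSO, was tested and not called. CD14, at 0.82 CPM after CC-885 and 0.80 CPM after DMSO, was tested and not called either. These markers were named after their values were seen. In bulk RNA, fewer cells of a type and less RNA per cell cannot be told apart.

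Levels are in CPM, the usual unit for counts scaled to library size, here with TMM factors, and ± is the SD of 3 libraries. Calls are those of edgeR's quasi-likelihood test with Benjamini-Hochberg adjustment over 13444 tested genes, at an adjusted p below 0.05. By this rule 8 of the 10 genes were called, where 52.6% of all tested genes were called. Higher were 5 of them (SNAI2, ZEB1, ZEB2, CDH2 and FN1), where 25.8% of all tested genes were higher, and 3 were lower (TWIST1, TWIST2 and VIM), where 26.8% were lower. SNAI1 and CDH1 were not called. The groups did not overlap for 9 of the 10 genes, where 61.1% of all tested genes did not overlap. The median log2 fold change of the 10 genes was 0.49, and that of all tested genes was -0.04. The mesenchymal genes of this set therefore did not move in 1 direction: N-cadherin and both ZEB genes rose while vimentin and both TWIST genes fell.

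**Figure D1:**
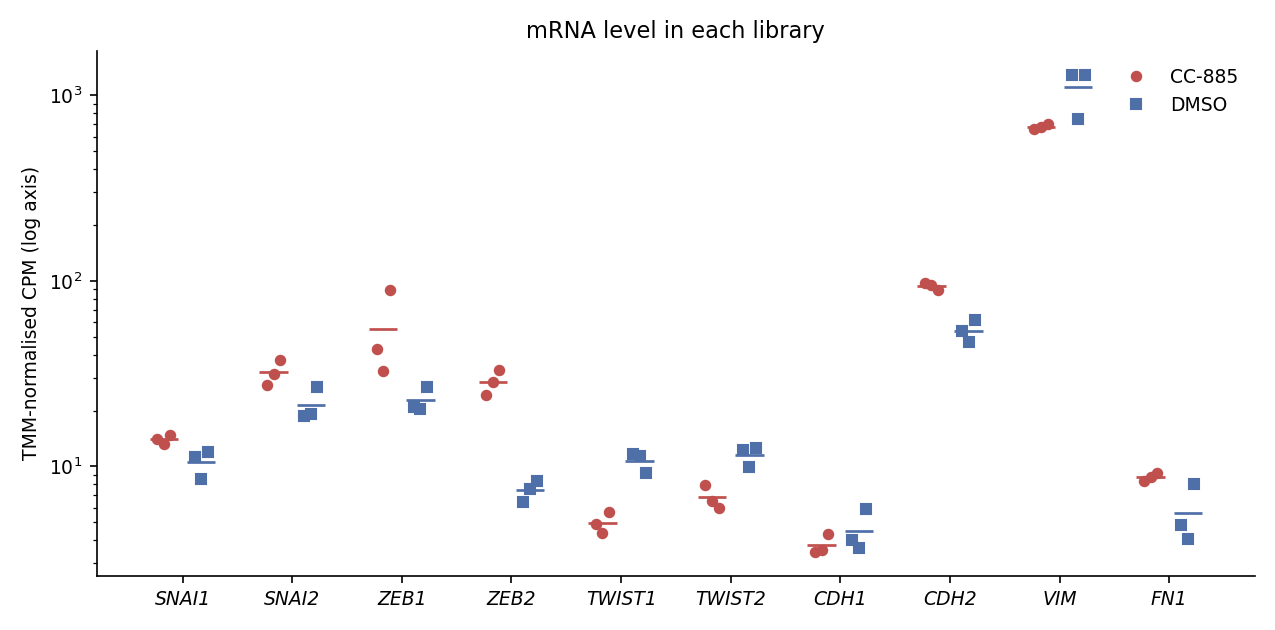
TMM-normalised CPM of each gene (log axis) in the 3 CC-885 libraries (red circles, left of each pair) and the 3 DMSO libraries (blue squares), with the group mean as a line. ZEB2 and CDH2 stand higher in every CC-885 library, TWIST1 and TWIST2 stand lower, and only CDH1 overlaps between the groups.

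Promoter sequences are shown for the higher ZEB genes, CDH2 and FN1, so that motifs of factors known to act on such genes can be seen in place. RefSeq windows of 300 bases (250 before and 50 after a start site, GRCh38.p14) were matched by symbol for 6 of the 10 genes: ZEB1, ZEB2, TWIST2, CDH2, VIM and FN1. Windows were searched on both strands for CAGGTG, the E-box form that SNAIL and ZEB proteins bind, and for TGACGTCA, the cAMP response element. They were also searched for TGANTCA, a loose form of the AP-1 motif with any base at N, where the usual AP-1 site has C or G. Of 35116 windows of the same length in the table, 20.6% hold CAGGTG, 7.71% TGANTCA and 1.85% TGACGTCA. The start site that these cells use is not known from counts. Where a gene has several windows, the one with the most matches is printed, and capitals mark the motif letters, read on either strand.
ZEB1, chr10:31318966-31319265, plus strand: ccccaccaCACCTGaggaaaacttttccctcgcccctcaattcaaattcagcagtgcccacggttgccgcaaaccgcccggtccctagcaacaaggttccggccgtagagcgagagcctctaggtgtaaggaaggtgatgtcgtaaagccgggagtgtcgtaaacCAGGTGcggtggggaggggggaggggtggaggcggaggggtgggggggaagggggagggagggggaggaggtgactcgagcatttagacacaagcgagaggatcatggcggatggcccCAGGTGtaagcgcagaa
ZEB2, chr2:144520070-144520369, minus strand: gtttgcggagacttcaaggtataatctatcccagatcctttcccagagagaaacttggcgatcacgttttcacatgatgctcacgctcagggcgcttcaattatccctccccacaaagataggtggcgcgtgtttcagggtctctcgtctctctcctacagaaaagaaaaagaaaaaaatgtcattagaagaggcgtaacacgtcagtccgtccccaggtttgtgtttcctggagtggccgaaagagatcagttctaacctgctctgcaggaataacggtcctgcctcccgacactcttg
CDH2, chr18:28036592-28036891, minus strand: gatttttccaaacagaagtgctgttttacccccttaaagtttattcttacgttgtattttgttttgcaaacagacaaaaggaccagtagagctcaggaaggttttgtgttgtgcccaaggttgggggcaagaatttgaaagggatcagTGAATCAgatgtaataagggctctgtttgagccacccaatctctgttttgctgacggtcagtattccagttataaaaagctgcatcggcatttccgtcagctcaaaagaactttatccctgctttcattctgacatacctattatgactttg
FN1, chr2:215436019-215436318, minus strand: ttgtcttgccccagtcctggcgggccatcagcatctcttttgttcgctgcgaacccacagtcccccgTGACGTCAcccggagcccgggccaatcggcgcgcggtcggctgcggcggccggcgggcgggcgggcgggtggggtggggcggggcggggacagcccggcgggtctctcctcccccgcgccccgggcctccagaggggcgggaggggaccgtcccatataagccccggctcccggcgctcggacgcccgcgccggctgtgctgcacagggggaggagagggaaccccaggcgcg
The ZEB1 window, 1 of 7 for that gene, holds CAGGTG 3 times, at -242, -85 and 34 from the start site (first base of the match). Another ZEB1 window holds it once, so 2 of the 7 windows carry it. CDH2 has TGANTCA at -102 in 1 of its 2 windows, where it reads TGAATCA and so is not the usual AP-1 site. FN1 has TGACGTCA at -183. The CDH2 window printed here lies well inside the gene. Its other window, chr18:28177081-28177380, lies near the 5' end of the gene and holds none of the 3 motifs. None of the 3 motifs is in the ZEB2, TWIST2 or VIM window. These matches describe letters and say nothing of binding.

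SNAI1 (ENSG00000124216, chromosome 20) encodes Snail, a short-lived zinc finger repressor. It stood at 14.1, 13.3 and 14.7 CPM in the CC-885 libraries, against 11.3, 8.53 and 11.9 CPM in the DMSO libraries. The groups did not overlap, CC-885 being the upper one, but the difference did not pass the test. The log2 fold change was 0.41 (SE 0.16, 95% interval 0.05 to 0.76, edgeR adjusted p = 0.0537). It passed under 5 of 15 alternative settings, limma-voom (adjusted p = 0.0492), DESeq2's size factors (adjusted p = 0.0476), the replicate block (adjusted p = 0.0366), GC and length offsets (adjusted p = 0.0076) and the omission of DMSO replicate 3 (adjusted p = 0.0268).

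SNAI2 (ENSG00000019549, chromosome 8) encodes Slug, the close relative of Snail. Its levels were 27.5, 31.4 and 37.4 CPM after CC-885, against 18.7, 19.1 and 26.6 CPM after DMSO. The groups touched without overlapping, since the lowest CC-885 library stood just above DMSO replicate 3. SNAI2 rose with a log2 fold change of 0.58 (SE 0.17, edgeR adjusted p = 0.0152). SNAI2 missed the threshold on omission of CC-885 replicate 3 (adjusted p = 0.0747), DMSO replicate 1 (adjusted p = 0.0634) or DMSO replicate 2 (adjusted p = 0.0503).

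ZEB1 (ENSG00000148516, chromosome 10) encodes a repressor with a zinc finger cluster at each end and a homeodomain between them. Its levels were 42.8, 32.5 and 89.0 CPM after CC-885, against 20.9, 20.5 and 26.9 CPM after DMSO. CC-885 replicate 3 stood far above the other CC-885 libraries, which themselves lay above every DMSO library. The coefficient of variation of ZEB1 was 55.0% among CC-885 libraries, and among the other 9 genes it ran from 3.38% to 15.5%. ZEB1 rose with a log2 fold change of 1.27 (SE 0.40, edgeR adjusted p = 0.0429). Without CC-885 replicate 3 its log2 fold change came to 0.73 and stayed called (adjusted p = 0.0121). ZEB1 missed the threshold on omission of CC-885 replicate 1 (adjusted p = 0.0555) or of DMSO replicate 1, 2 or 3 (adjusted p = 0.139, 0.144 and 0.140), and when genes of low count were kept (adjusted p = 0.0769).

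ZEB2 (ENSG00000169554, chromosome 2) encodes the paralog of ZEB1, also known as SIP1 for its binding to SMAD proteins. It had 24.2, 28.6 and 33.1 CPM in the CC-885 libraries, against 6.42, 7.57 and 8.35 CPM in the DMSO libraries. The lowest CC-885 library was well clear of the highest DMSO library. ZEB2 rose 3.85-fold (log2 fold change 1.94, SE 0.17, edgeR adjusted p = 6.32e-06), which was the largest change among the 10 genes. Under all 15 alternatives it stayed called, with log2 fold changes from 1.73 to 2.06. Per kb of a coding transcript, ZEB1 exceeded ZEB2 2.81-fold after CC-885 and 4.88-fold after DMSO, and with merged exon lengths 5.08-fold after CC-885 and 8.83-fold after DMSO.

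TWIST1 (ENSG00000122691, chromosome 7) encodes a basic helix-loop-helix factor of mesoderm development. It had 4.86, 4.37 and 5.67 CPM after CC-885, against 11.7, 11.3 and 9.24 CPM after DMSO. Every CC-885 library lay below every DMSO library. TWIST1 fell by 1.11 on the log2 scale (SE 0.17, edgeR adjusted p = 0.000288). TWIST2 (ENSG00000233608, chromosome 2), its paralog, had 7.93, 6.52 and 5.96 CPM after CC-885, against 12.2, 9.94 and 12.5 CPM after DMSO. Here too the groups were apart. TWIST2 fell by 0.76 on the log2 scale (SE 0.17, edgeR adjusted p = 0.00301). Both TWIST genes stayed called under all 15 alternatives, with log2 fold changes between -1.21 and -0.84 for TWIST1 and between -0.88 and -0.61 for TWIST2.

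CDH1 (ENSG00000039068, chromosome 16) encodes E-cadherin, the adhesion receptor of epithelial adherens junctions. It was scarce in both groups, at 3.46, 3.56 and 4.30 CPM after CC-885, against 4.02, 3.62 and 5.86 CPM after DMSO. The groups overlapped, and DMSO replicate 3 held the highest value. CDH1 was not called (log2 fold change -0.25, SE 0.22, 95% interval -0.73 to 0.23, edgeR adjusted p = 0.358). Without DMSO replicate 3 its log2 fold change was -0.02. CDH1 mRNA was thus low after DMSO already.

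CDH2 (ENSG00000170558, chromosome 18) encodes N-cadherin, the classical cadherin of neural and mesenchymal cells. It had 98.03, 94.5 and 89.7 CPM after CC-885, against 53.5, 46.6 and 61.5 CPM after DMSO. The CC-885 libraries lay close together and above every DMSO library. CDH2 rose with a log2 fold change of 0.81 (SE 0.13, edgeR adjusted p = 0.000467) and stayed called under all 15 alternatives (0.67 to 0.91). In counts per kb of a coding transcript, which allows levels of different genes to be set side by side, CDH2 exceeded CDH1 28.2-fold with CC-885 and 13.7-fold with DMSO. The log2 ratio of the 2 counts was 4.82, 4.73 and 4.38 in the CC-885 libraries, against 3.73, 3.69 and 3.39 in the DMSO libraries. N-cadherin mRNA was thus the more abundant in every library, and its excess was larger in each CC-885 library than in each DMSO library. This ratio is a description with no test.

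VIM (ENSG00000026025, chromosome 10) encodes vimentin, the intermediate filament of mesenchymal cells, and was the most abundant of the 10 genes per kb in both groups. It had 656, 676 and 702 CPM after CC-885, against 1295, 748 and 1294 CPM after DMSO. DMSO replicate 2 stood near the CC-885 libraries and the other DMSO libraries stood far above them. VIM fell by 0.71 on the log2 scale (SE 0.21, edgeR adjusted p = 0.0123). The call was lost without DMSO replicate 1 (log2 fold change -0.58, adjusted p = 0.0544), and without DMSO replicate 2 VIM was at -0.92 on that scale (adjusted p = 0.000104).

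FN1 (ENSG00000115414, chromosome 2) encodes fibronectin, a matrix glycoprotein that integrins bind. It was a low transcript, at 8.39, 8.76 and 9.27 CPM after CC-885, against 4.83, 4.06 and 8.04 CPM after DMSO. The CC-885 libraries lay close together, and DMSO replicate 3 came near them. FN1 rose with a log2 fold change of 0.65 (SE 0.23, edgeR adjusted p = 0.0364). This was the least stable of the calls, lost under 7 of 15 alternatives with adjusted p up to 0.113. Those were the removal of any library other than DMSO replicate 3, the stricter low-count filter (adjusted p = 0.0507), and GC and length offsets (adjusted p = 0.0617). Without DMSO replicate 3 FN1 had a log2 fold change of 0.98 (adjusted p = 0.000326).

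**Figure D2:**
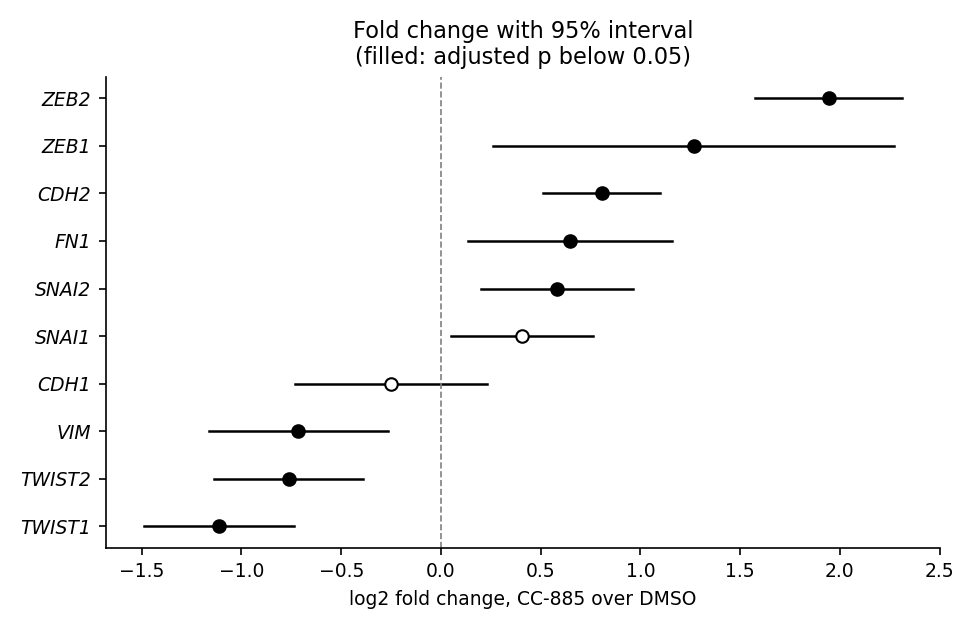
Log2 fold change of CC-885 over DMSO for each gene, with its 95% interval from the quasi-likelihood fit. Filled points passed the test, and the open points of SNAI1 and CDH1 did not. ZEB2 lies at 1.94 and TWIST1 at -1.11, the ends of the range.

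In GENCODE 29, exons of 6 of the 10 genes (ZEB1, ZEB2, TWIST1, CDH1, CDH2 and VIM) overlap exons of a gene on the opposite strand. None of those antisense genes has a row in the count table. No source says that strand was used in counting, so reads of a gene and of its antisense partner cannot be told apart. No exon of the 10 genes overlaps a gene on the same strand.

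**Figure D3:**
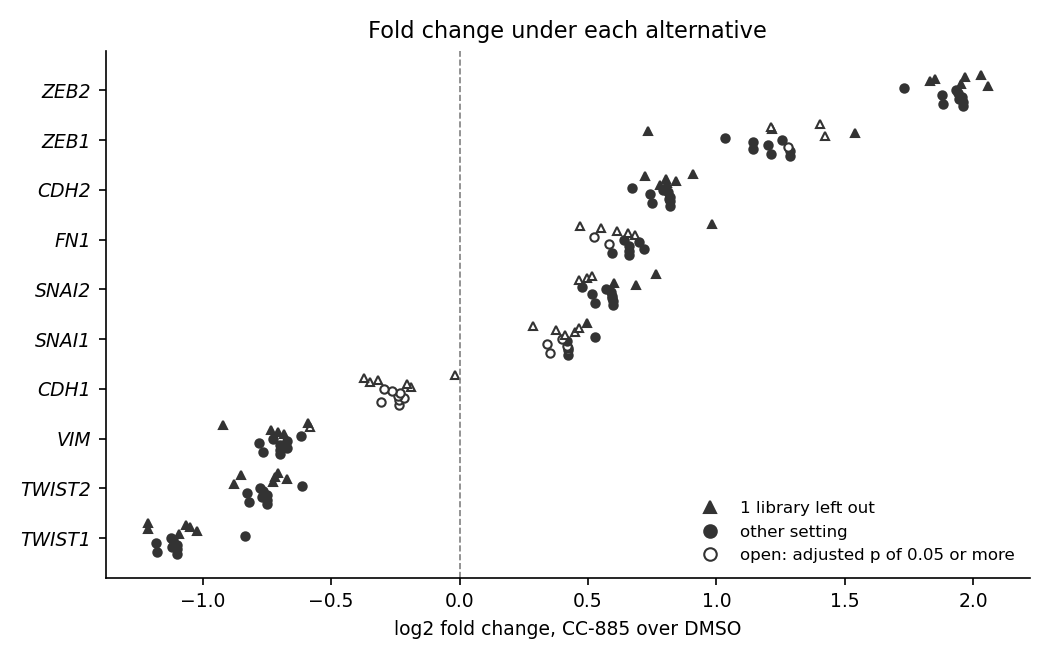
Log2 fold change of each gene under each alternative, with triangles for a library left out and circles for other settings. Open marks have an adjusted p of 0.05 or more. No gene changed sign, and ZEB2, CDH2, TWIST1 and TWIST2 keep filled marks throughout.

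Per kb of a coding transcript, the order of mean levels with CC-885 was VIM (363 CPM per kb), CDH2 (21.7), SNAI2 (13.2), ZEB1 (9.14), SNAI1 (8.32), TWIST2 (4.85), ZEB2 (2.99), TWIST1 (2.98), FN1 (0.989) and CDH1 (0.774). With DMSO the order was VIM (596 CPM per kb), CDH2 (12.4), SNAI2 (8.84), TWIST2 (8.22), TWIST1 (6.45), SNAI1 (6.27), ZEB1 (3.80), CDH1 (0.923), ZEB2 (0.777) and FN1 (0.634). Several neighbours did not differ beyond their spread: ZEB1 (SD 5.02) and SNAI1 (SD 0.43), or ZEB2 (SD 0.463) and TWIST1 (SD 0.394), with CC-885, and SNAI2 (SD 1.84) and TWIST2 (SD 0.992), TWIST1 (SD 0.79) and SNAI1 (SD 1.07), or CDH1 (SD 0.245), ZEB2 (SD 0.101) and FN1 (SD 0.237), with DMSO. With merged exon lengths, VIM and CDH2 stayed in front in both groups and several of the others changed places. SNAI2 was then at 6.33 CPM per kb (SD 1.32) after DMSO, within the spread of SNAI1 (6.27, SD 1.07) and TWIST2 (6.15, SD 0.742).

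The makeup of the EMT factor mRNAs differed between the groups. The levels of the 6 factors, per kb, summed to 37.9, 36.5 and 50.1 CPM per kb with CC-885, against 34.3, 31 and 37.8 CPM per kb with DMSO, and the groups overlapped, CC-885 replicate 3 being the highest. Within that sum TWIST1 held 7.22% ± 0.455 with CC-885 and 19% ± 3.84 with DMSO (mean ± SD, n = 3). TWIST2 held 12.0% ± 3.27 with CC-885 and 23.9% ± 1.298 with DMSO. ZEB1 held 21.1% ± 7.66 with CC-885 and 11.0% ± 0.837 with DMSO, and ZEB2 7.25% ± 0.813 with CC-885 and 2.27% ± 0.298 with DMSO. SNAI2 had the largest mean share in both groups, at 32% ± 2.99 with CC-885 and 25.6% ± 3.26 with DMSO, but with DMSO it did not stand beyond the spread from TWIST2, which was larger in DMSO replicate 1. SNAI1 differed least in its mean, at 20.3% ± 2.51 with CC-885 and 18.2% ± 1.68 with DMSO. These shares are a description with no test, and they depend on the transcript length assigned to each gene.

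**Figure D4:**
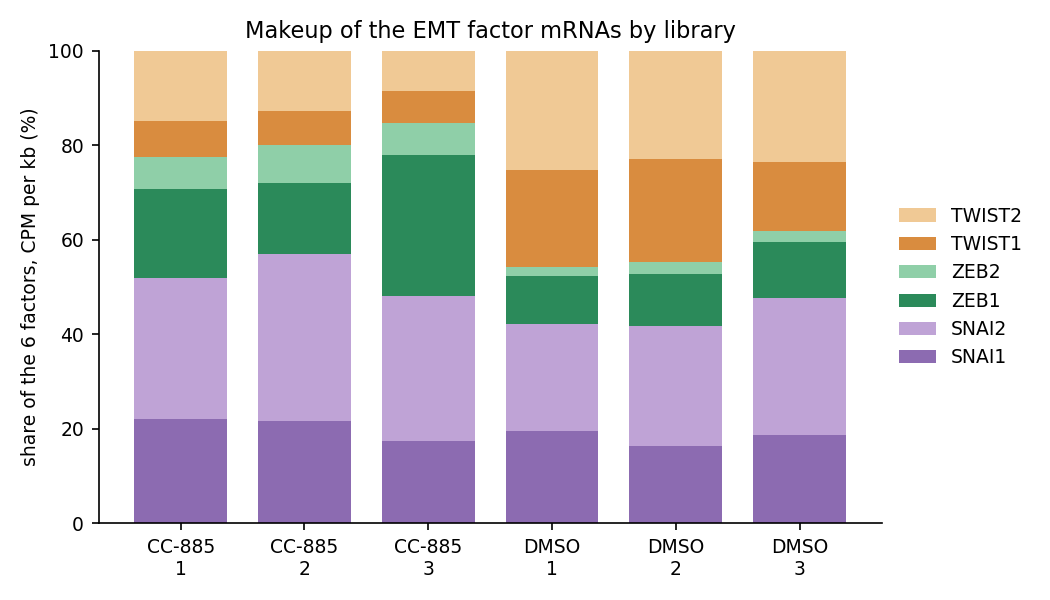
Share of each of the 6 EMT transcription factors in their summed level (CPM per kb of a coding transcript, in percent) for each library. The TWIST shares (orange) are smaller in every CC-885 library and the ZEB shares (green) are larger than in any DMSO library.

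The genes around this core were read from 12 lists of EMT factors, junctions, filaments, matrix and signalling. With the cell type markers they hold 143 tested genes, of which 54.5% were called, 32.9% higher and 21.7% lower, where 52.6% of all tested genes were called, 25.8% higher and 26.8% lower. Each count below is to be read against those shares of all tested genes. Among 12 tested of 15 other EMT transcription factors, 3 were higher and 2 lower (median log2 fold change 0.25). GATA6, an endoderm factor, stood at 13.5 ± 1.21 CPM after CC-885 and 3.63 ± 1.17 CPM after DMSO (log2 fold change 1.90, edgeR adjusted p = 6.13e-05). The forkhead genes FOXC2 (1.37, edgeR adjusted p = 0.000151) and FOXC1 (0.48, edgeR adjusted p = 0.014) were higher too. TCF4, an E protein that pairs with TWIST factors, was lower, at 9.90 ± 1.55 CPM after CC-885 and 18.7 ± 1.91 CPM after DMSO (-0.92, edgeR adjusted p = 0.000732). TCF3 and TCF12, which also encode E proteins and were named after their values were seen, were not called. TCF3 had 121 ± 5.27 CPM after CC-885 and 97.2 ± 19.8 CPM after DMSO (0.31). TCF12 had 59.2 ± 2.45 CPM after CC-885 and 40.5 ± 13.7 CPM after DMSO (0.55). FOXC1 lost its call without CC-885 replicate 1 (adjusted p = 0.0531). FOXC2, GATA6 and TCF4 have an antisense gene over their exons.

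Of 14 factors that hold cells in an epithelial state, 6 passed the filter, 2 were higher and 1 lower (median log2 fold change 0.12). Their levels were uneven, as the next genes show, which were named after their values were seen. GRHL2, OVOL2 and ESRP1 had at most 2 counts in any library, while ESRP2 had 64.4 ± 7.80 CPM after CC-885 and 60.0 ± 6.98 CPM after DMSO, and ELF3 had 53.2 ± 6.53 CPM after CC-885 and 55.3 ± 5.88 CPM after DMSO, neither of them called. Higher were GRHL1 (15.5 ± 1.41 CPM after CC-885 and 7.38 ± 1.83 CPM after DMSO, log2 fold change 1.07, edgeR adjusted p = 0.00086) and KLF4 (0.80, edgeR adjusted p = 0.0209). HNF4A, the hepatocyte nuclear factor, was lower, at a low level in both groups (0.214 ± 0.183 CPM after CC-885 and 1.25 ± 0.184 CPM after DMSO, -2.50, edgeR adjusted p = 0.00156). KLF4 lost its call without CC-885 replicate 2 (adjusted p = 0.054).

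SNAIL and ZEB repressors work through chromatin enzymes, and of 14 corepressor genes 7 were higher and 2 lower (median log2 fold change 0.37). Higher were the Polycomb subunits EZH2 (157 ± 8.34 CPM after CC-885 and 61.7 ± 2.03 CPM after DMSO, 1.34, edgeR adjusted p = 7.56e-06) and SUZ12 (0.73, edgeR adjusted p = 0.000871), and the scaffold SIN3A (0.80, edgeR adjusted p = 0.000409). Lower were the deacetylase HDAC1 (119 ± 6.15 CPM after CC-885 and 216 ± 13.7 CPM after DMSO, -0.86, edgeR adjusted p = 0.000202) and CTBP1 (-0.69, edgeR adjusted p = 0.00112), a corepressor that ZEB proteins recruit. Its paralog CTBP2, named after its values were seen, went the other way. CTBP2 was called higher, at 126 ± 5.62 CPM after CC-885 and 99.3 ± 11.3 CPM after DMSO (0.34, edgeR adjusted p = 0.0425). That call was not followed under the alternatives. SIN3A, CTBP1 and CTBP2 have a gene on the opposite strand over their exons.

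Of 17 genes that set the lifetime of Snail protein, 16 were tested, 8 were higher and 1 lower (median log2 fold change 0.49). LATS2, a Hippo pathway kinase that phosphorylates Snail, had 274 ± 20.8 CPM after CC-885 and 44.7 ± 7.83 CPM after DMSO (2.62, edgeR adjusted p = 7.03e-07). BTRC, the F-box receptor that marks Snail for degradation, was higher (1.09, edgeR adjusted p = 2.89e-05), as was the deubiquitinase USP37 (1.29, edgeR adjusted p = 6.93e-05), which shares a long exon stretch with VIL1 on the opposite strand. CTDSP1, a phosphatase of Snail with an antisense gene, was lower (-0.43, edgeR adjusted p = 0.0117), but not on omission of CC-885 replicate 3 or under GC and length offsets (adjusted p up to 0.572). Protein stability was not measured.

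Among catenins and other partners of cadherins, 3 of 13 tested were higher and 3 lower (median log2 fold change -0.01). VEZT (0.95, edgeR adjusted p = 0.000422), the afadin gene AFDN (0.82, edgeR adjusted p = 0.000615) and NECTIN3 (0.45, edgeR adjusted p = 0.0157) were higher. NECTIN4 (-1.49, edgeR adjusted p = 0.00101), NECTIN1 (-0.84, edgeR adjusted p = 0.00189) and CTNNBIP1 (-0.75, edgeR adjusted p = 0.00258), an inhibitor of beta-catenin, were lower. NECTIN3 lost its call without CC-885 replicate 2 or 3 or DMSO replicate 1 (adjusted p up to 0.0709), and NECTIN1 and CTNNBIP1 have antisense genes. The core catenins, named after their values were seen, were not called: CTNNB1 had 315 ± 12.2 CPM after CC-885 and 330 ± 76.8 CPM after DMSO, and CTNND1 had 153 ± 10.8 CPM after CC-885 and 154 ± 30.9 CPM after DMSO.

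Desmosome genes had 2 of 8 tested higher, PKP4 (0.80, edgeR adjusted p = 0.000969) and PKP2 (0.63, edgeR adjusted p = 0.00625), and 2 lower, PERP (-0.72, edgeR adjusted p = 0.00149) and PKP3 (-0.64, edgeR adjusted p = 0.00215). The PKP3 log2 fold change was -0.04 under GC and length offsets (adjusted p = 0.666), and PKP4 has an antisense gene.

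Of 20 other cadherins, 5 were tested and 5 had 0 counts in every library. CDH5, the cadherin of endothelial cells, was higher at 2.11 ± 0.366 CPM after CC-885 and 0.168 ± 0.0143 CPM after DMSO (log2 fold change 3.63, edgeR adjusted p = 9.9e-06). CDH13 (-0.70, edgeR adjusted p = 0.00791), a cadherin anchored by a lipid, and CDH4 (-0.67, edgeR adjusted p = 0.0217) were lower, CDH4 losing its call in DESeq2's Wald test and without CC-885 replicate 2 or 3 or DMSO replicate 1 (adjusted p up to 0.0902). CDH5 is itself 1 of 7 endothelial markers, whose summed level ran from 3.23 to 5.03 CPM after CC-885 and from 1.17 to 1.66 CPM after DMSO. The 6 others summed to between 1.54 and 2.73 CPM after CC-885 and between 1.01 and 1.47 CPM after DMSO. VWF made up most of that sum, at 1.88 ± 0.655 CPM after CC-885 and 0.929 ± 0.258 CPM after DMSO. Among the untested markers, the means of STAB2, TEK and PECAM1 were lower after CC-885 and that of CLEC4M was higher. STAB2, the highest of these, had 0.098 CPM after CC-885 and 0.234 CPM after DMSO. Both tested markers were higher, VWF being the other one (1.01, edgeR adjusted p = 0.0232, up to 0.116 without CC-885 replicate 1 or DMSO replicate 1 or 2), KDR had 0 counts in every library and PECAM1 at most 4. Their part in the CDH5 result was not tested.

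In the list of cadherin-processing enzymes 4 of 11 tested were higher and 2 lower (median log2 fold change 0.35). ADAM15 (-0.69, edgeR adjusted p = 0.00188), which shares exon bases with DCST1 on its own strand, and the gamma-secretase gene PSEN2 (-0.46, edgeR adjusted p = 0.0158) were lower. CBLL1, which encodes the E-cadherin ubiquitin ligase Hakai, had 40.8 ± 13.2 CPM after CC-885 and 20.3 ± 5.83 CPM after DMSO (1.01, edgeR adjusted p = 0.0233), with overlapping groups. CBLL1 and PCSK6 (0.50, edgeR adjusted p = 0.0319) lost their calls under 5 of 15 alternatives each: CBLL1 under GC and length offsets and without CC-885 replicate 1 or 3 or DMSO replicate 2 or 3 (adjusted p up to 0.151), PCSK6 under the stricter low-count filter and without replicate 1 or 2 of either group (adjusted p up to 0.102). PSEN2 lost its call without CC-885 replicate 2 or 3 or DMSO replicate 1. CBLL1 and PCSK6 have antisense genes.

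Of 10 tested genes of other intermediate filaments and vimentin partners, 0 were higher and 3 lower (median log2 fold change -0.27). At an unadjusted p below 0.05 in edgeR 0 were higher. At an adjusted p below 0.05, limma-voom and DESeq2's Wald test also had 0 higher, and edgeR under GC and length offsets had 1. These were the neuronal filaments PRPH (0.418 ± 0.0408 CPM after CC-885 and 1.62 ± 0.0867 CPM after DMSO, -1.94, edgeR adjusted p = 0.000258) and INA (-0.61, edgeR adjusted p = 0.0142), and NES (-0.61, edgeR adjusted p = 0.0145), which encodes nestin. An antisense gene covers much of PRPH, INA lost its call without CC-885 replicate 1 or 2 (adjusted p up to 0.0677), and NES without CC-885 replicate 3 or DMSO replicate 1 (adjusted p up to 0.0703).

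Fibronectin receptors and matrix partners had 5 of 12 tested higher and 3 lower (median log2 fold change 0.02). ITGA5, the alpha subunit of the main fibronectin receptor, had 166 ± 13.1 CPM after CC-885 and 74.9 ± 13.4 CPM after DMSO (1.15, edgeR adjusted p = 0.000116), while ITGB1, its partner, named after its values were seen, had 583 ± 90.0 CPM after CC-885 and 545 ± 56.9 CPM after DMSO and was not called. ITGB3 (2.55, edgeR adjusted p = 2.35e-05), whose exons share bases with another gene on its strand, and the syndecan SDC4 (1.03, edgeR adjusted p = 0.000359) were higher. The fibrillin gene FBN1 (-0.86, edgeR adjusted p = 0.00207), TNC (-1.60, edgeR adjusted p = 0.00734) and ITGA3 (-0.44, edgeR adjusted p = 0.0339) were lower, ITGA3 with overlapping groups and a call lost without any 1 library but DMSO replicate 2 (adjusted p up to 0.131). TNC was at a low level in both groups, with 0.251 ± 0.0701 CPM after CC-885 and 0.772 ± 0.223 CPM after DMSO. ITGA5 and TNC overlap a gene on the opposite strand.

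Mesenchymal matrix and cytoskeleton genes had 3 of 12 tested higher and 6 lower (median log2 fold change -1.14), where that of all tested genes was -0.04. S100A4, a calcium-binding protein associated with metastasis, had 63.1 ± 13.8 CPM after CC-885 and 284 ± 45.5 CPM after DMSO (-2.17, edgeR adjusted p = 5.28e-06). ACTA2 (-2.84, edgeR adjusted p = 5.28e-06) and the proteoglycan DCN (-3.23, edgeR adjusted p = 8.21e-05) were lower too. DCN was at a low level in both groups, with 0.126 ± 0.00902 CPM after CC-885 and 1.21 ± 0.308 CPM after DMSO. Higher were the actin-binding TAGLN (270 ± 50.04 CPM after CC-885 and 69.3 ± 5.58 CPM after DMSO, 1.96, edgeR adjusted p = 4.43e-06), the collagen chain COL1A1 (0.58, edgeR adjusted p = 0.00327) and the crosslinking enzyme LOX (0.45, edgeR adjusted p = 0.024), whose call was lost under GC and length offsets and without CC-885 replicate 3 or DMSO replicate 1 or 2 (adjusted p up to 0.105). ACTA2, TAGLN and LOX share exon bases with FAS, PCSK7 and SRFBP1 on the opposite strand. Of 9 fibroblast and stellate markers, 5 were tested, 1 was higher (COL1A1) and 3 lower, among them PDGFRB (-2.33, edgeR adjusted p = 8.63e-07) and RGS5 (-0.88, edgeR adjusted p = 0.00099). Their summed level ran from 156 to 190 CPM after CC-885 and from 166 to 196 CPM after DMSO. COL1A1 made up most of that sum, at 155 ± 16.3 CPM after CC-885 and 104 ± 6.22 CPM after DMSO. PDGFRB, the next largest, had 14.1 ± 0.37 CPM after CC-885 and 70.9 ± 10.7 CPM after DMSO. The sum therefore does not show the fall of the markers called lower. LUM and LRAT had 0 counts in every library. The part of such cells in these results was not tested.

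In the TGF-beta pathway, a classical inducer of EMT, 8 of 16 genes were higher and 1 lower (median log2 fold change 0.45). The ligand gene TGFB2 (3.51, edgeR adjusted p = 5.83e-08) was higher while TGFB3 (2.49 ± 0.202 CPM after CC-885 and 4.62 ± 0.441 CPM after DMSO, -0.89, edgeR adjusted p = 0.00231) was lower. SKIL, a repressor of SMAD activity, had 90.2 ± 10.4 CPM after CC-885 and 33.9 ± 3.91 CPM after DMSO (1.41, edgeR adjusted p = 1.49e-05). SMURF1, a ubiquitin ligase of the pathway, was higher as well (1.44, edgeR adjusted p = 3.47e-05) and overlaps TRRAP on the opposite strand. TGFB2 and TGFB3 share exon bases with non-coding genes.

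**Figure D5:**
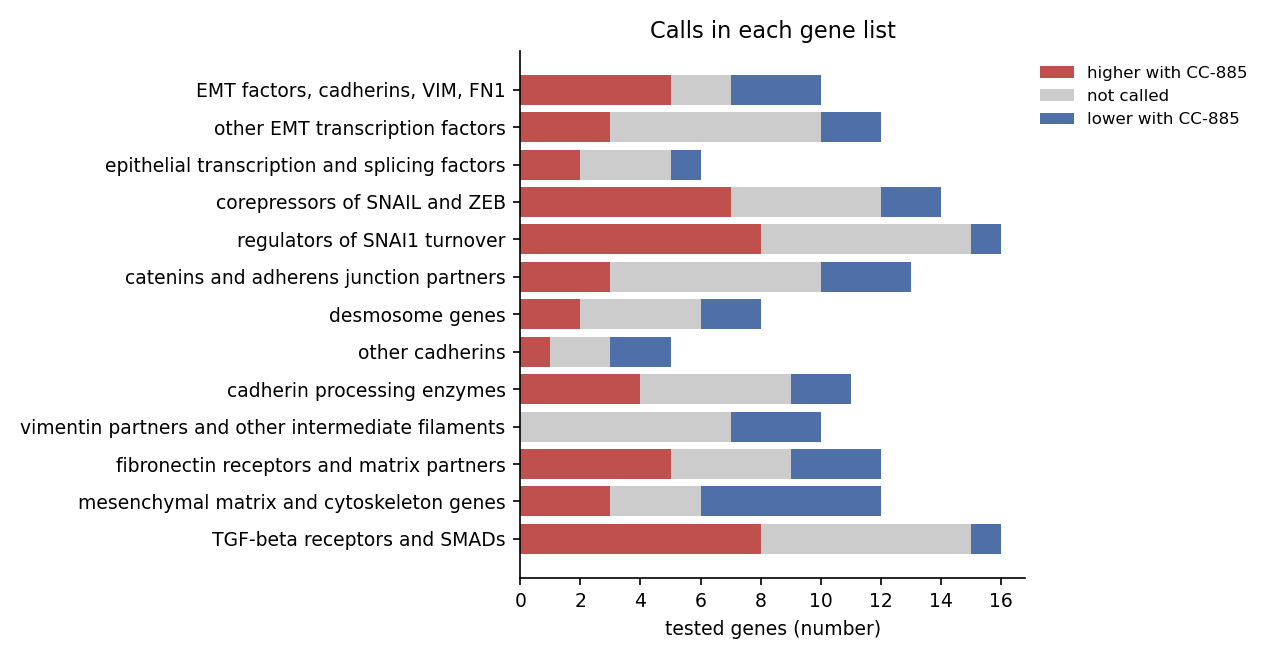
Number of tested genes in each list that were higher (red), not called (grey) or lower (blue) with CC-885. Vimentin partners have 0 higher and 3 lower, and Snail turnover genes have 8 higher and 1 lower.

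For each called member with a mean of at least 5 CPM, the gene with the most similar profile over the 6 libraries was sought among 10802 others by Pearson's r of log2 CPM. The profile of ZEB2 was nearest to that of PICALM (r = 0.9996), that of CDH2 to LHFPL6 (r = 0.9990), that of TWIST1 to TCEANC2 (r = 0.9978) and that of TWIST2 to RTN4R (r = 0.9985). SNAI2 was nearest to KDM4C (r = 0.9973), VIM to PLD2 (r = 0.9971) and FN1 to SP2 (r = 0.9979). ZEB1, with its high CC-885 replicate 3, was nearest to the readthrough gene ZNF8-ERVK3-1 (r = 0.9886). These values describe 6 libraries that fall into the groups compared, so a gene that differs between the groups can reach a high r. Each is also the highest r among 10802 genes. KDM4C (log2 fold change 0.20) and ZNF8-ERVK3-1 (log2 fold change 2.73) were themselves not called. The size of the change can differ: the log2 fold change of PICALM was 0.70 and that of ZEB2 1.94.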

How the data were processed

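Gene counts of 6 libraries (3 CC-885, 3 DMSO) were used. The authors deposited raw whole-number gene counts, not normalized, per the file headers and values; libraries were made with an mRNA kit whose strand setting is not given, per the labels' protocols. The sources used here give no aligner, counter or annotation. Mouse builds (GRCm38, mm10) stand in the submitters' processing notes although every row is a human Ensembl gene, so coordinates are given only for RefSeq windows. Symbols came from a gene name table (20148 rows) or GENCODE 29 (76), and 39 rows had none. Of counts from 1 to 10, 70.3% were even, so a fragment may count more than once. For a count of 0 the limit is 0.0754 to 0.0986 CPM (3 counts of the total), which covers counting error only.

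The fit used edgeR 4.0.16 (R 4.3.3): TMM factors, filterByExpr (minimum count 10), robust quasi-likelihood F test between the groups without covariates, Benjamini-Hochberg adjustment over 13444 genes and a threshold of 0.05. SE was approximated as the size of the log2 fold change divided by the root of F. Log2 CPM used a prior count of 2. Levels per kb used the GENCODE 29 basic transcript with the longest coding sequence. The fit was also run on simulated counts in which few genes changed. Many genes were called in these data, so that run does not decide the rate of false calls here. The main fit did not pair libraries by replicate number, and the check in the closing section does not decide whether the numbers pair them.

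The members and lists were chosen with earlier results of these data known. The text names all 10 members, up to 3 higher and 3 lower called genes of each list by smallest p, and for each called member of at least 5 CPM the most similar gene; others are marked. Of the list genes that this rule names, 2 are not reported here. Alternatives were DESeq2 1.42.0 size factors and Wald test, library size only, limma-voom (limma 3.58.1), no filter, a stricter filter (3 libraries or more at 5 CPM or more), the replicate block and each library left out; halved counts and GC and length offsets were added after seeing the data.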

Additional observations from a re-analysis of the deposited data

How the results depend on the processing

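The number of genes called (7069) lay between 5805 and 7296 when 1 library was left out, with 2897 to 3650 higher (3471 with all) and 2908 to 3720 lower (3598 with all). Of the 10 members 8 were called, and 4 to 8 when 1 library was left out: 4 without DMSO replicate 1 and 5 without DMSO replicate 2. ZEB2, TWIST1, TWIST2 and CDH2 kept their calls under all 15 alternatives, while SNAI2, ZEB1, VIM and FN1 lost theirs under at least 1. No member changed sign under any alternative run. The cause of these lost calls was not tested. Fits that leave 1 library out have fewer libraries, and their calls also differed with the library left out. Without DMSO replicate 1, 5805 genes and 4 members were called. Without DMSO replicate 3, 7296 genes and 8 members were called, with ZEB1 lost and SNAI1 gained. CDH1 has no value under the filter of at least 5 CPM, since it did not pass it. The log2 ratio of CDH2 to CDH1 counts was 4.65 with CC-885 and 3.60 with DMSO, ran from 4.56 to 4.78 and from 3.54 to 3.71 when 1 library was left out, and was 4.96 with CC-885 and 3.92 with DMSO per kb of merged exons, since the gene models differ in length. With the replicate number as a block, 7273 genes and 9 members were called, SNAI1 being added (adjusted p = 0.0366). Deviations from the group means correlated at 0.0958, 0.0311 and 0.0722 for libraries with the same number. Libraries with different numbers were not compared, so these values do not decide whether the numbers pair the libraries. The lists beside the members had 78 calls among 143 tested genes (54.5%, where 52.6% of all tested genes were called), and 65 to 86 calls under the alternatives.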
